A study of Mus musculus with 8 samples.

Results

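Serpins are a family of proteins that share 1 fold, and most of them inhibit serine or cysteine proteases. The family was taken here as every gene whose symbol begins with *Serpin*, a clade letter from a to i and a digit, which gave 60 of the 25965 genes in the table. They lie on 11 chromosomes, with 22 on chromosome 12, 15 on chromosome 13 and 13 on chromosome 1. All 60 symbols were found in the GENCODE M21 annotation as protein-coding genes. Lung RNA had been sequenced from *Wfdc2* +/+ and *Wfdc2* GFP/GFP mice at E18.5, before birth, and at P1.5, after birth. Each of the 4 groups held 2 libraries, which the series describes as duplicate animals. In the GFP allele, an IRES-EGFP cassette takes the place of a part of exon 1 and all of exon 2 of *Wfdc2*, which encodes a secreted inhibitor of the WAP family. The deletion is in every cell, the allele was made in TT2 embryonic stem cells, and the control animals carry no GFP copy.

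An inhibitory serpin presents a reactive loop as bait. The protease cuts the loop and is then trapped in a covalent complex, so that each molecule works once. Plasma serpins made by hepatocytes, such as α1-antitrypsin and antithrombin, reach the lung with the blood, whereas clade B serpins stay mostly inside the cell and protect it from its own or from incoming proteases. Some members do not inhibit proteases: *Serpinh1* encodes HSP47, a collagen chaperone of the endoplasmic reticulum, and *Serpina7* encodes a carrier of thyroxine. In the lung the family is best known from α1-antitrypsin, whose deficiency in humans leads to emphysema.

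Values are log2 RPKM, reads per kilobase of the whole gene span with the library scaled to 1000000 reads, from which the reads behind each value were recovered. RPM stands for the same scaled reads without the division by length. The libraries held between 19457647 and 37209333 reads, and the limit of detection was set at 3 reads, which is 0.0806 to 0.154 RPM. *Wfdc2* itself had 8038 to 32845 reads in the +/+ libraries and 0 to 12 in the GFP/GFP libraries. Defining lung genes were read in every library, with 239772 to 1443891 reads of *Sftpc*. Replicate 1 of every group expressed *Xist* (4121 to 90980 reads) and replicate 2 the Y-linked *Ddx3y* (972 to 2175 reads), so the sex of the animals follows the replicate number and not the group. Replicate 2 of P1.5 +/+ stood apart, with 1030 reads of *Alb* against 8 to 55 in the other libraries and 1092 reads of *Krt13* against 11 to 57. Replicate 1 of P1.5 +/+ was low in collagen RNA, with 4178 reads of *Col1a1* against 7966 to 51895 elsewhere. The summed lung marker genes of replicate 1 of E18.5 GFP/GFP stood at 9105 RPM against 20620 to 26141 in the other E18.5 libraries. In bulk lung RNA, fewer cells of a type and less RNA per cell cannot be told apart.

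Of the 60 serpin genes, 24 had 10 or more reads in both libraries of at least 1 group. A further 14 had reads but did not reach this, and 22 had no more than 3 reads in any library, 8 of them none at all. The 20 genes that could be tested, with a mean of at least 0.05 RPKM, were all among the 24; *Serpini1*, *Serpinb1b*, *Serpinb11* and *Serpinb12* were read but lay below that mean. Reads of the whole family came to between 1182 and 2549 RPM in a library, and *Serpinh1* supplied between 23.8% and 57.7% of them.

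By mean log2 RPKM over the 8 libraries, *Serpinh1* stood first at 6.32 ± 0.70 (SD, n = 8). Next came *Serping1*, which encodes the C1 inhibitor of the complement cascade, at 4.31 ± 0.37. They were followed by the intracellular *Serpinb6b* at 3.55 ± 0.66 and by *Serpinb9*, an inhibitor of granzyme B, at 2.41 ± 0.35. The libraries of *Serpinh1* (5.16 to 7.55) lay above all those of *Serping1* (3.84 to 4.87), whereas every later neighbouring pair in the order overlapped. Per kilobase of exon in place of the gene span, the first 3 places were the same, and *Serpinb6a*, whose span of 84.9 kb holds 5.41 kb of exon, moved from place 6 to place 4. The genes that varied most between libraries were *Serpina3i*, *Serpina3f*, *Serpina3n* and *Serpina3g*, with SDs of 2.21 to 3.26 on the log2 scale.

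**Figure D1:**
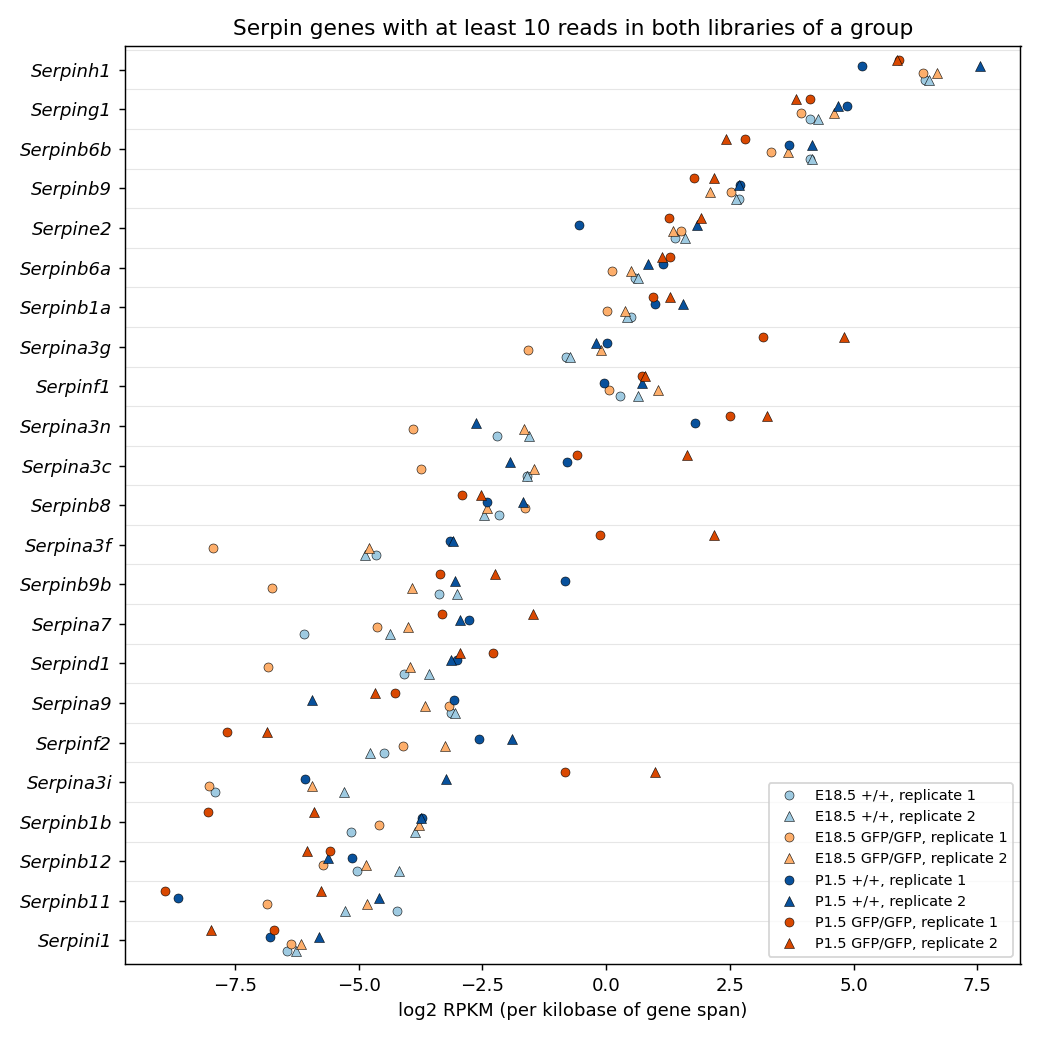
Log2 RPKM (horizontal axis) of 23 of the 24 serpin genes with 10 or more reads in both libraries of a group, 1 row per gene in the order of the mean level, with 1 point per library; colour gives stage and genotype, circles are replicate 1 and triangles replicate 2. *Serpinh1* lies at 5.16 to 7.55 in all libraries, and the P1.5 GFP/GFP points of *Serpina3g*, *Serpina3f* and *Serpina3i* lie to the right of all other points of those genes.

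The *Serpina3* genes are a mouse cluster on chromosome 12 that stands where humans have the single gene of α1-antichymotrypsin, an acute-phase protein. Of the cluster, *Serpina3c*, *Serpina3f*, *Serpina3g*, *Serpina3i* and *Serpina3n* were read. *Serpina3g*, an inhibitor of cathepsins that acts inside leukocytes, lies at chr12:104236245-104241939 (mm10, plus strand). Its reads were 112 and 107 in E18.5 +/+, 71 and 155 in E18.5 GFP/GFP, 126 and 96 in P1.5 +/+, and 1195 and 4638 in P1.5 GFP/GFP. Both P1.5 GFP/GFP libraries thus lay above the other 6, and they differed from each other by more than the other groups' means did among themselves. *Serpina3n*, which encodes a secreted acute-phase inhibitor, lies at chr12:104406729-104414329. It had 57 and 80 reads in E18.5 +/+, 19 and 70 in E18.5 GFP/GFP, 571 and 24 in P1.5 +/+, and 997 and 2110 in P1.5 GFP/GFP. Replicate 1 of P1.5 +/+ came closest to the GFP/GFP libraries, and the +/+ replicates of that stage were far apart. *Serpina3f* (chr12:104214544-104221129) had 9 and 7 reads in E18.5 +/+, 1 and 7 in E18.5 GFP/GFP, 16 and 15 in P1.5 +/+, and 140 and 870 in P1.5 GFP/GFP. *Serpina3i* (chr12:104263122-104269372) had 0 and 5, 0 and 3, 2 and 13, and 82 and 363 reads in the same order of groups. In neither gene did the P1.5 GFP/GFP libraries overlap with any other. *Serpina3c* (chr12:104146382-104153870, minus strand) had 85 and 77, 21 and 80, 94 and 38, and 116 and 678 reads, or 5.01 and 23.2 RPM in P1.5 GFP/GFP against 0.564 to 4.33 in the other 6 libraries. It was the member of the cluster whose groups lay closest together.

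In log2 RPKM, *Serpina3g* stood at −0.77 ± 0.05 in E18.5 +/+, −0.84 ± 1.04 in E18.5 GFP/GFP, −0.09 ± 0.17 in P1.5 +/+ and 3.99 ± 1.15 in P1.5 GFP/GFP (SD, n = 2). Together the 5 genes supplied 0.220% to 0.645% of the family's reads at E18.5, 3.15% and 0.375% in P1.5 +/+, and 8.23% and 19.2% in P1.5 GFP/GFP. The share in replicate 1 of P1.5 +/+ came mostly from *Serpina3n*, with 571 of 809 reads.

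**Figure D2:**
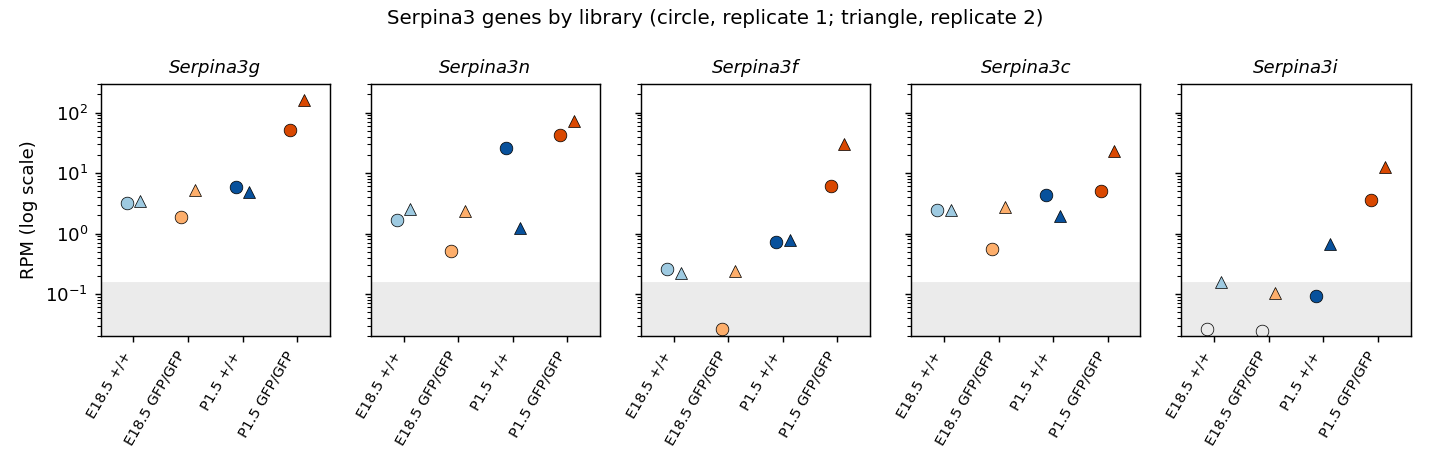
RPM on a log axis of the 5 read *Serpina3* genes in each library, by stage and genotype; circles are replicate 1, triangles replicate 2, open symbols libraries without a read, drawn at 0.9 read, and the grey band reaches to 3 reads in the shallowest library. In all 5 panels both P1.5 GFP/GFP points lie above the other points, with *Serpina3n* in replicate 1 of P1.5 +/+ at 26.3 against 43.0 and 72.1 in P1.5 GFP/GFP.

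The genes of the cluster resemble each other, which bears on how their reads can be told apart. Of the stretches of 36 bases in their transcripts, the length to which the reads had been shortened, 24.6% in *Serpina3g*, 22.8% in *Serpina3i*, 22.1% in *Serpina3f*, 16.9% in *Serpina3n* and 12.5% in *Serpina3c* also occur in another gene's transcript. *Serpina3g* and *Serpina3i* shared most with *Serpina3h*, which is not analysed here, and *Serpina3f* shared most with *Serpina3g*. The split of reads among *Serpina3f*, *Serpina3g* and *Serpina3i* is therefore uncertain. Their sum could also hold reads of *Serpina3h*, which was not tested.

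The letters before the start sites of the 5 genes are shown for comparison, from RefSeq (GRCm38.p6), each on the strand of the gene. Capitals mark TTCNNNGAA, the pattern that STAT factors of the interferon and interleukin 6 pathways recognise.
Serpina3f: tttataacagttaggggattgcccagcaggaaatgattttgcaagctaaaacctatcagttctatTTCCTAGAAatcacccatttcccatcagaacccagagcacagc
Serpina3g: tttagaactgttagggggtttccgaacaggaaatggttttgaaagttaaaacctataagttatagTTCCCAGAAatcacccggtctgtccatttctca
Serpina3i: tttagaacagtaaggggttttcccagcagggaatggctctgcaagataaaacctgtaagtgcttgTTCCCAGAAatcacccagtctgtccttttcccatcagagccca
Serpina3c: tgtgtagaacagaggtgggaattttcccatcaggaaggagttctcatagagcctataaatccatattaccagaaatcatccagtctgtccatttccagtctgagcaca
Serpina3n: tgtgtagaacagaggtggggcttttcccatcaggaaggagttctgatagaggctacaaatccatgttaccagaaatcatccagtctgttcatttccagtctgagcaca
The stretches lie at chr12:104214358-104214465 for *Serpina3f*, chr12:104236049-104236146 for *Serpina3g* and chr12:104262955-104263062 for *Serpina3i*, on the plus strand. Those of *Serpina3c*, on the minus strand, and *Serpina3n*, on the plus strand, lie at chr12:104153950-104154057 and chr12:104406520-104406627. The pattern begins 121 bases before the RefSeq start in *Serpina3f*, 33 in *Serpina3g* and 102 in *Serpina3i*, and is not among the letters of the 250 bases before the start in *Serpina3c* and *Serpina3n*. Searched on both strands, it occurs in 7.02% of 32851 mouse promoter windows, each taken as the 250 bases before a start, and in 7 of the 51 serpin genes that have a window. The NF-κB consensus was found in *Serpina3g* and *Serpina3i* and in 3.9% of all windows, and TTGCNNAA, of the C/EBP factors, in *Serpina3f* alone of the 5 and in 9.56% of all windows. The longest run present in all 5 windows was agaaatca, of 8 bases, which overlaps the pattern's end where that is present. Over the aligned bases, the windows of *Serpina3c* and *Serpina3n* were 92.7% identical, and those of *Serpina3f*, *Serpina3g* and *Serpina3i* 80.5% to 82.6%. The RefSeq start of *Serpina3g* lies 98 bases from the start of its deposited span.

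The first comparison asked how the family differed between genotypes after birth. At P1.5, none of the 20 members tested passed an adjusted p-value of 0.05 in limma's moderated test over 15627 genes, where 0.0128% of all genes passed. At an unadjusted p under 0.05 there were 8 members, where 10.9% of all genes passed. Of the 8, 4 were higher in GFP/GFP (3.61% of all genes), all of them *Serpina3* genes, and 4 were lower (7.33% of all genes). Among the higher 4, *Serpina3i* reached the filter of 0.05 RPKM only through its P1.5 GFP/GFP libraries. *Serpinf2*, among the lower 4, reached it only through its P1.5 +/+ libraries. The libraries of the genotypes did not overlap in 12 of the 20 members, 7 higher and 5 lower in GFP/GFP, against 39.4% of all genes. The median log2 fold change was 0.13 over the 20 members and −0.20 over all genes tested. Over all genes that median was 0.09 for genotype at E18.5, −0.15 for stage in +/+ and −0.46 for stage in GFP/GFP, so each fold change below is read against a shift of that size.

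Of the acute-phase list, *Serpina3f*, *Serpina3g* and *Serpina3n* were higher in P1.5 GFP/GFP, by 3.29 to 4.15 on the log2 scale. *Serpina3i* was higher too, but it reached the filter of 0.05 RPKM only through that group. It had 0.566 and 1.98 RPKM there against 0.00387 to 0.107 elsewhere, so its direction was partly set in advance. *Serpinb2*, which was not tested, had 4 reads in all in P1.5 GFP/GFP and 10 in P1.5 +/+. The fold of *Serpina3g* was 4.08 (SE 0.62, adjusted p = 0.152). For *Serpina3f* it was 4.15 (SE 1.07, adjusted p = 0.302), and for *Serpina3i* 4.74 (SE 1.28, adjusted p = 0.309). *Serpina3n* differed by 3.29 (SE 1.31, adjusted p = 0.428), and by 1.08 without replicate 2 of P1.5 +/+ or 5.50 without replicate 1. *Serpina3c*, which was not on that list, differed by 1.89 (SE 0.92, adjusted p = 0.502), and by 0.78 without replicate 2 of P1.5 GFP/GFP or 2.99 without replicate 1. None of these differences passed the adjusted threshold. Beside them, *Lcn2*, which lung epithelium expresses in inflammation and which stood on the neutrophil list, had 2751 and 1376 reads in P1.5 +/+ and 11437 and 24334 in P1.5 GFP/GFP. The other 7 genes of the neutrophil list differed less, for example *S100a8* with 16748 and 3587 reads against 10458 and 6961, and their part in the *Serpina3* result was not tested.

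At E18.5, 0 members passed the adjusted threshold (0.0192% of all genes) and 0 had an unadjusted p under 0.05 (4.37% of all genes). The genotypes did not overlap in 7 members, 1 higher and 6 lower in GFP/GFP, against 36% of all genes. All 4 acute-phase genes tested stood lower in GFP/GFP (40.8% of all genes were lower), with a median of −0.64, and the libraries overlapped in each. In each of them replicate 1 was the lower GFP/GFP library, for example *Serpina3n* with 19 reads against 70 in replicate 2. Among the members that did not overlap, only *Serpinb9b*, a mouse clade B gene near *Serpinb9*, differed by more than 1 on the log2 scale. Its 48 and 56 reads in +/+ stood against 5 and 28 in GFP/GFP, a log2 fold change of −2.14 (SE 1.04, adjusted p = 0.9998), which came to −0.73 without replicate 1 of GFP/GFP and −3.56 without replicate 2.

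The difference between the genotype effects at P1.5 and at E18.5 was tested as an interaction. No member and 0% of all genes passed the adjusted threshold, and 4 members had an unadjusted p under 0.05 (10.2% of all genes), *Serpinf2*, *Serpina3g*, *Serpina3f* and *Serpina3i*. The last of these was tested only because of its level in P1.5 GFP/GFP, and *Serpinf2* only because of its level in P1.5 +/+. For *Serpina3g* the interaction was 4.15 (SE 0.88, adjusted p = 0.215) and for *Serpina3f* 5.75 (SE 1.51, adjusted p = 0.271). *Serpina3i* gave 5.12 (SE 1.81, adjusted p = 0.389), *Serpina3n* 4.19 (SE 1.86, adjusted p = 0.499) and *Serpina3c* 2.88 (SE 1.30, adjusted p = 0.509). The interaction of *Serpina3n* was 1.98 without replicate 2 of P1.5 +/+ and 6.40 without replicate 1. That of *Serpina3c* was 1.74 without replicate 1 of E18.5 GFP/GFP and 1.78 without replicate 2 of P1.5 GFP/GFP. These values were given after the genotype effects had been seen.

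**Figure D3:**
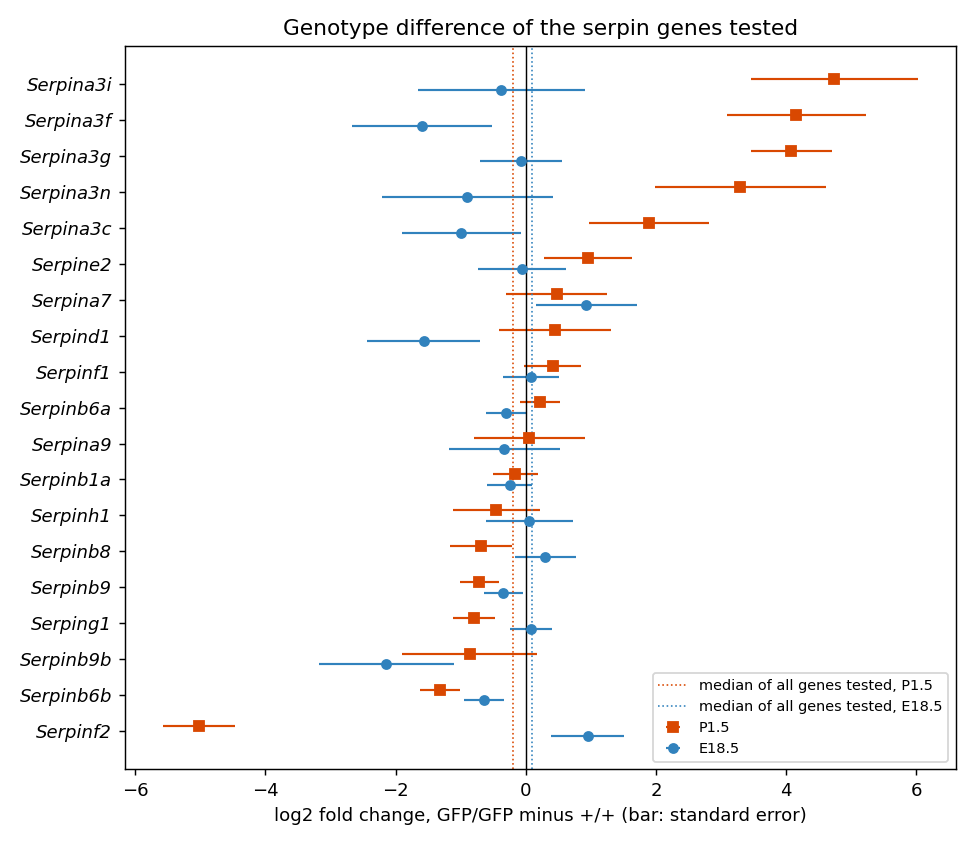
Log2 fold change of GFP/GFP over +/+ (horizontal axis) for 19 of the 20 serpin genes tested, squares at P1.5 and circles at E18.5, with bars of 1 standard error and dotted lines at the median of all genes tested. The 5 *Serpina3* genes lie between 1.89 and 4.74 at P1.5 and at or below −0.07 at E18.5, while *Serpinf2* lies at −5.02 at P1.5 and 0.95 at E18.5.

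The next comparison followed the family across birth within each genotype. These contrasts use the libraries of the genotype comparison again, so they are not separate evidence. In GFP/GFP, 4 of the 20 members passed the adjusted threshold, against 4.55% of all genes, and 12 had an unadjusted p under 0.05, against 35.6%. The stages did not overlap in 15 members, against 67.2% of all genes. *Serpina3g*, *Serpina3f* and *Serpina3i* rose (1.61% of all genes rose) and *Serpinf2* fell (2.94% fell). *Serpina3g* rose by 4.83 on the log2 scale (SE 0.62, adjusted p = 0.021) and *Serpina3f* by 7.39 (SE 1.07, adjusted p = 0.0259). *Serpina3i*, which reached the filter only through P1.5 GFP/GFP, rose by 7.06 (SE 1.28, adjusted p = 0.0398). Since it had 3 reads in all at E18.5 GFP/GFP against 445 at P1.5, its ratio in RPM was 188, with a counting interval (exact, 95%) of 63.9 to 915. *Serpina3n* gave 5.66 (SE 1.31, adjusted p = 0.0514) and *Serpina3c* 3.12 (SE 0.92, adjusted p = 0.0706), which did not pass. The value of *Serpina3c* was 1.98 without replicate 1 of E18.5 GFP/GFP. The calls depended on single libraries: 0 members passed without replicate 1 of E18.5 GFP/GFP or without either P1.5 GFP/GFP library, 3 and 2 without replicates 1 and 2 of E18.5 +/+ (0.525% and 0.518% of all genes), 8 without replicate 2 of E18.5 GFP/GFP (15.7%), and 9 without either P1.5 +/+ library (31.2% without replicate 1 and 31.1% without replicate 2). With a pseudocount of 1 RPKM added to each value the fold changes of *Serpina3f* and *Serpina3i* came to 1.67 and 1.10, and neither passed with that setting or with voom, a fit on the recovered reads.

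In +/+, 0 members passed (0.0576% of all genes), 3 had an unadjusted p under 0.05 (11.8% of all genes) and the stages did not overlap in 9, all of them higher at P1.5 (55.6% of all genes in either direction). *Serpina3f*, with 9 and 7 reads before birth and 16 and 15 after it, gave 1.64 (SE 1.07, adjusted p = 0.451). The 3 members with an unadjusted p under 0.05 were *Serpinf2*, *Serpina7* and *Serpinb1a*, the first of which reached the filter only through P1.5 +/+. Without replicate 2 of P1.5 +/+, 3 members passed, *Serpina3n* and, lower at P1.5, *Serpinh1* and *Serpine2*, where 13.9% of all genes passed.

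The secreted and endoplasmic reticulum serpins of the lung supplied most of the family's reads. *Serpinh1* (chr7:99345375-99353230) stood at 682 and 727 RPM in E18.5 +/+, 663 and 808 in E18.5 GFP/GFP, 282 and 1471 in P1.5 +/+, and 478 and 463 in P1.5 GFP/GFP. At P1.5 the GFP/GFP libraries lay between those of +/+, which were farther apart than any other pair of replicates for this gene. The collagens whose folding HSP47 assists were also low in replicate 1 of P1.5 +/+, for example *Col3a1* with 7224 reads against 51130 in replicate 2. *Serping1* (chr2:84765387-84775444) stood at 174 and 196, 155 and 246, 295 and 258, and 174 and 144 RPM in the same order of groups. Its P1.5 +/+ libraries thus lay above all others, and it was 1 of the 4 members lower in P1.5 GFP/GFP at an unadjusted p under 0.05.

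*Serpine2*, which encodes protease nexin 1, an inhibitor of thrombin and plasminogen activators bound to cell surfaces, had 44.4 and 229 RPM in P1.5 +/+ and 156 and 245 in P1.5 GFP/GFP. Its replicate 1 of P1.5 +/+ was low as in *Serpinh1*, and the genotypes overlapped. *Serpinf1*, which encodes the antiangiogenic factor PEDF, ranged from 12.6 to 26.6 RPM over all libraries, with 12.6 and 21.3 in P1.5 +/+ and 21.3 and 22.2 in P1.5 GFP/GFP. *Serpini1*, the gene of neuroserpin, had 10 to 39 reads in each library.

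A list of 5 lung-expressed intracellular clade B serpins was examined, and the other clade B genes that were read are given elsewhere. Of the 5, 4 were lower in GFP/GFP at P1.5 (61.2% of all genes were lower) and 4 at E18.5 (40.8%), with medians of −0.68 and −0.31. *Serpinb6b* (chr13:32965209-32979067) had 242 and 249 RPM in E18.5 +/+, 140 and 176 in E18.5 GFP/GFP, 180 and 248 in P1.5 +/+, and 96.9 and 73.9 in P1.5 GFP/GFP. At both stages each GFP/GFP library lay below each +/+ library. The log2 fold change at P1.5 was −1.32 (SE 0.31, adjusted p = 0.272), between −1.55 and −1.09 when 1 library was left out, and the interaction with stage was −0.67 (SE 0.44, adjusted p = 0.660), or −0.44 without replicate 2 of P1.5 +/+. *Serpinb9* (chr13:33003250-33017957), which shields cytotoxic lymphocytes and their neighbours from granzyme B, had 94.0 and 91.1 RPM in E18.5 +/+, 84.0 and 63.0 in E18.5 GFP/GFP, 95.8 and 94.3 in P1.5 +/+, and 50.3 and 67.0 in P1.5 GFP/GFP. It too was lower in each GFP/GFP library than in each +/+ library of the same stage, with an unadjusted p under 0.05 at P1.5 alone. Reads of granzyme B itself (*Gzmb*) were few after birth, 1 and 14 in P1.5 +/+ and 24 and 9 in P1.5 GFP/GFP, against 96 to 237 before it.

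*Serpinb6a*, the counterpart of human SERPINB6, an inhibitor of cathepsin G, had 128 and 133 RPM in E18.5 +/+, 92.3 and 121 in E18.5 GFP/GFP, 189 and 153 in P1.5 +/+, and 208 and 186 in P1.5 GFP/GFP. All 4 libraries at P1.5 lay above the 4 at E18.5, and the genotypes overlapped at P1.5. Its span shares 23807 bases with *Nqo2* on the other strand, and whether the counting used the strand is not given in the sources used here. *Serpinb1a*, an inhibitor of neutrophil elastase, had 12.8 and 12.1, 9.22 and 11.9, 18.1 and 26.7, and 17.4 and 22.3 RPM, again higher in every library at P1.5 than at E18.5. *Serpinb8*, whose product inhibits furin, ranged from 2.50 to 6.10 RPM, without a gap between stages.

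The liver-type list held 14 plasma serpins that hepatocytes are known to secrete, of which 3 were read. *Serpinf2* (chr11:75431732-75439591), the gene of α2-antiplasmin, the main inhibitor of plasmin, had 12 and 9 reads in E18.5 +/+, 17 and 24 in E18.5 GFP/GFP, 29 and 41 in P1.5 +/+, and 0 and 2 in P1.5 GFP/GFP. After birth both GFP/GFP libraries were at or below the limit of detection, and before birth they lay above the +/+ libraries. The gene reached the filter of 0.05 RPKM only through P1.5 +/+, so the direction of contrasts with that group was partly set in advance. Over the 2 libraries of each group at P1.5, 70 reads against 2 is a ratio of 44.6 in RPM, with a counting interval of 11.9 to 375. The fitted log2 fold change at P1.5 was −5.02 (SE 0.56, adjusted p = 0.0820), where the library without a read carries the value of 0.9 read; with a pseudocount of 0.1 RPKM it was −1.56. Across birth it was 2.40 in +/+ (SE 0.56, adjusted p = 0.191) and −3.57 in GFP/GFP (SE 0.56, adjusted p = 0.032), and the interaction was −5.97 (SE 0.79, adjusted p = 0.141). The 0.1 RPKM setting brought the fall in GFP/GFP to −0.75, and 1 RPKM to −0.10; it passed the adjusted threshold with neither, nor with voom. Without replicate 2 of P1.5 +/+ the genotype difference at P1.5 was −4.70. Some hepatocyte genes moved with *Serpinf2* in both P1.5 +/+ libraries and others did not. *Apoa1*, the gene of the main protein of high-density lipoprotein, had 139 and 213 reads in P1.5 +/+ and 14 and 10 in P1.5 GFP/GFP, against 1 to 6 at E18.5. *Hpx*, the gene of the haem carrier hemopexin, had 33 and 19 reads in E18.5 +/+, 61 and 77 in E18.5 GFP/GFP, 112 and 150 in P1.5 +/+, and 49 and 45 in P1.5 GFP/GFP, the same order of groups as *Serpinf2* within each stage. *Ahsg* had 22 and 523 reads in P1.5 +/+ against 0 and 6 in P1.5 GFP/GFP, whereas *Alb* had 8 and 1030 against 13 and 29. Of the 20 hepatocyte genes examined, at P1.5 the GFP/GFP libraries were both below both +/+ libraries in RPM in 5. They were both above them in 3, *Itih1*, *Itih3* and *Itih4*, and the genotypes overlapped in 12. Over all genes tested, the genotypes did not overlap in 39.4%, so these counts are near that share. The part of hepatocyte RNA in the *Serpinf2* result was not tested. None of the 36-base stretches of its transcripts occurs in another gene's transcript.

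*Serpind1*, the gene of the thrombin inhibitor heparin cofactor II, had 25 and 32 reads in E18.5 +/+, 4 and 23 in E18.5 GFP/GFP, 33 and 27 in P1.5 +/+, and 58 and 46 in P1.5 GFP/GFP. Its whole span lies within *Pi4ka* on the other strand (12205 bases shared). In GFP/GFP it differed across birth by 2.77 (SE 0.86, adjusted p = 0.0761), which came to 1.34 without replicate 1 of E18.5 GFP/GFP and 4.21 without replicate 2. *Serpina7* on the X chromosome had 3 and 9 reads, 9 and 11, 19 and 15, and 14 and 63 in the same order of groups. It differed across birth by 2.37 in +/+ (SE 0.78, adjusted p = 0.349) and by 1.92 in GFP/GFP (SE 0.78, adjusted p = 0.124). The first came to 1.51 without replicate 1 of E18.5 +/+, and the second to 1.003 without replicate 2 of P1.5 GFP/GFP. Both genes stayed under 3 RPM in every library.

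The other 11 liver-type genes had too few reads to test, and their reads lay mostly in replicate 2 of P1.5 +/+. The 5 α1-antitrypsin genes had 18 reads (*Serpina1a*), 48 (*Serpina1b*), 8 (*Serpina1c*), 9 (*Serpina1d*) and 15 (*Serpina1e*) there. In the other 7 libraries *Serpina1e* had 4 reads in replicate 1 of P1.5 +/+, and no gene of the 5 had more than 1 read elsewhere. Between 40.1% and 79.8% of their 36-base stretches also occur in other genes, and the span of *Serpina1b* contains that of *Serpina1d*, so only their presence in that library is read from these counts. *Serpinc1*, the gene of antithrombin, had 44 reads there and 2 to 27 in the others. *Serpina10*, which inhibits factor Xa together with protein Z, had 18 there and 0 to 8 elsewhere. *Serpina3k* had 9 there and 0 to 1 elsewhere, and *Serpina3m*, whose span contains *Serpina3k*, had 10 there and 0 to 9 elsewhere. *Serpina11* had 15 there and 1 to 9 elsewhere, and its span shares 1837 bases with *Serpina9*. *Serpina6*, the gene of corticosteroid-binding globulin, had at most 1 read in any library.

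Summed over the 14 genes, the list stood at 14.2 RPM in replicate 2 of P1.5 +/+ against 1.801 to 4.88 in the other 7 libraries, and 11 of the 14 genes were highest there. In that library 13 of the 20 hepatocyte genes examined were also highest, among them *Afp* with 257 reads against 2 to 24 and *Ahsg* with 523 against 0 to 26. The 20 genes summed to 630 RPM there against 304 to 1051 in the others, most of it *Trf*, which lung also expresses. Of 10 basal and squamous epithelial genes, 6 were highest in the same library and the list summed to 177 RPM against 23.1 to 82.6, but *Krt14*, *Krt15*, *Sprr1a* and *Trp63* were not among them, for example *Krt15* with 1089 reads there and 432 to 2285 elsewhere. Whether the liver-type serpin reads come with this other RNA was not tested.

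**Figure D4:**
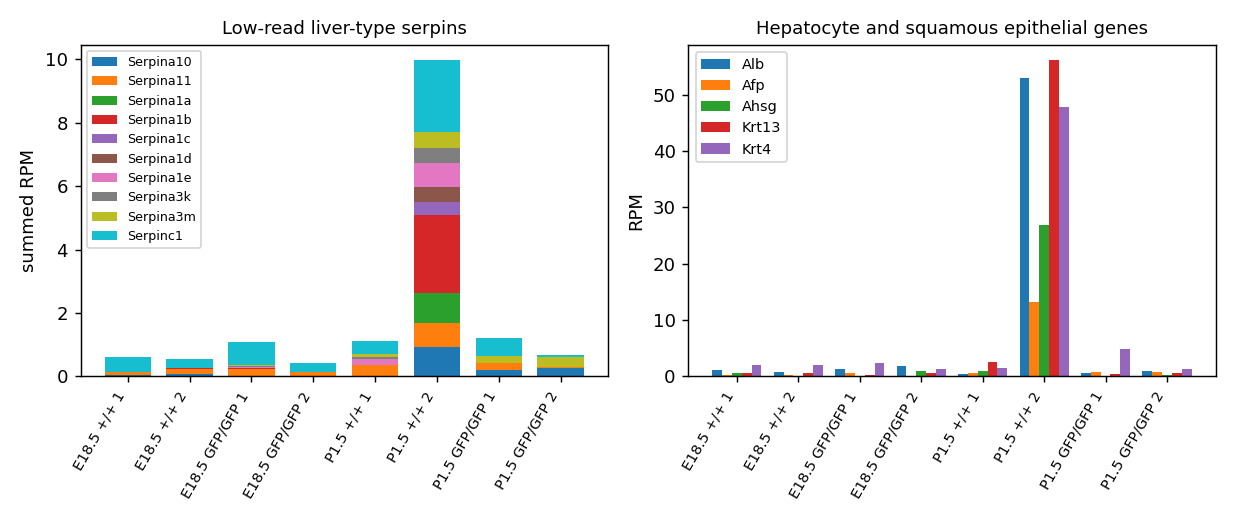
Left, RPM of the 10 liver-type serpin genes with few reads, stacked for each of the 8 libraries; right, RPM of 3 hepatocyte genes (*Alb*, *Afp*, *Ahsg*) and 2 keratins of squamous epithelium (*Krt13*, *Krt4*) in the same libraries. Replicate 2 of P1.5 +/+ stands above the other libraries in the left panel and in each of the 5 genes at right, which were chosen after their values were seen, with 1030 reads of *Alb* and 930 of *Krt4*.

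Of the 9 clade B serpins of squamous and basal epithelium on chromosome 1, 2 were read and none could be tested. *Serpinb12* had 24 and 39 reads in E18.5 +/+, 16 and 23 in E18.5 GFP/GFP, 14 and 9 in P1.5 +/+, and 11 and 10 in P1.5 GFP/GFP. *Serpinb11* had 34 and 15, 6 and 19, 1 and 15, and 0 and 10. Both were at most 1.25 RPM. *Serpinb5*, the gene of maspin, had between 0 and 17 reads, and the other 6 had no more than 1 read in any library, although replicate 2 of P1.5 +/+ held 1092 reads of *Krt13*.

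Among the remaining 21 members, 4 were read and 17 were not. *Serpina9*, known from germinal centre B cells, had 75 and 72 reads in E18.5 +/+, 79 and 44 in E18.5 GFP/GFP, 49 and 6 in P1.5 +/+, and 23 and 22 in P1.5 GFP/GFP. It differed across birth in GFP/GFP by −1.05 (SE 0.85, adjusted p = 0.395), and by −0.37 after centring of the libraries on their medians. *Serpinb9b* had 178 and 34 reads in P1.5 +/+ and 33 and 89 in P1.5 GFP/GFP, so its genotypes overlapped after birth. It differed across birth in GFP/GFP by 2.54 (SE 1.04, adjusted p = 0.126), and by 1.12 without replicate 1 of E18.5 GFP/GFP or 3.95 without replicate 2. *Serpinb1b* had 10 and 22 reads, 16 and 22, 17 and 15, and 0 and 5 in the order of groups, and its mean was under the filter. At P1.5 the ratio of GFP/GFP to +/+ was 0.123 in RPM, with a counting interval of 0.0373 to 0.317. *Serpinb6c* had 0 to 13 reads and *Serpine3* 0 to 13, and the other 15 no more than 3 in any library. *Serpinb2*, the gene of PAI-2 and the member of the acute-phase list that was not tested, had 0 to 9 reads.

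Proteases that serpins inhibit were counted from a list of 31 genes, of which 28 were in the table and 20 were tested. None passed the adjusted threshold in any contrast, where 0% to 4.55% of all genes passed. At P1.5, 15 of the 20 were higher in GFP/GFP (38.8% of all genes were higher), with a median log2 fold change of 0.40 against −0.20. *Prtn3*, the gene of the neutrophil protease proteinase 3, was the 1 with an unadjusted p under 0.05, against 10.9% of all genes. It had 59 and 24 reads in P1.5 +/+ and 129 and 129 in P1.5 GFP/GFP. Before birth its genotypes did not overlap either, with 23 and 30 reads in E18.5 +/+ and 74 and 54 in E18.5 GFP/GFP. Neutrophil elastase (*Elane*) had 0 to 9 reads and cathepsin G (*Ctsg*) 1 to 10, and plasminogen (*Plg*), whose product α2-antiplasmin inhibits, had 51 reads in replicate 2 of P1.5 +/+ and 2 to 11 elsewhere. Tissue plasminogen activator (*Plat*) had 199 and 684 reads in P1.5 +/+ and 348 and 1294 in P1.5 GFP/GFP. The complement proteases that the C1 inhibitor blocks had 378 and 502 reads (*C1ra*) and 444 and 739 (*C1s*) in P1.5 +/+ against 597 and 1333 and 539 and 1575 in P1.5 GFP/GFP, where *Serping1* was lower, and in RPM the genotypes overlapped in both. The 9 partners of the lung serpins are 6 collagen chains, *Vtn*, *Plaur* and *Lrp1*. Between genotypes at P1.5, 0 of them had an unadjusted p under 0.05 (10.9% of all genes). In GFP/GFP 1 was higher and 8 were lower, where 61.2% of all genes were lower.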

How the data were processed

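Total lung RNA was sequenced from directional libraries on HiSeq2500 or GAIIx instruments; which library ran on which is not given in the sources used here. The submitters' processing notes name CASAVA 1.8, Trim Galore 0.4.0, TopHat2 2.1.1 and the build mm10. Reads were cut to 36 bases. The authors counted reads in SeqMonk and deposited log2 RPKM, 1 column per library, in which a kilobase counts the whole gene span and a gene without reads carries 0.9 read. How SeqMonk treated strand and reads with several matches is not given in the sources used here.

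Each value was turned back into reads by the smallest step between values in its library; 99.86% to 99.97% of the values with reads came out within 0.02 of a whole number. This bears on precision: totals of 19457647 to 37209333 reads set the limit of detection of 3 reads, and intervals on reads are exact binomial, at 95%, and cover counting error only.

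Samples were grouped by the genotype and stage in their labels. Genes were tested where their mean reached 0.05 RPKM (15627 genes). The fit was made in limma 3.58.1 under R 4.3.3, on 4 group means with an intensity-dependent prior, and left 4 degrees of freedom for the spread. P-values are two-sided and adjusted by the Benjamini-Hochberg method over all 15627. The step was tested on simulated data. Replicates differed by more than sampling noise in every group.

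Members and lists were chosen with earlier results of these data known. Fold changes are given for members that passed the adjusted threshold, or that changed by at least 1 on the log2 scale without overlap, at most 12 per contrast, and for the interaction of those named at P1.5. The values of 1 member are not reported here, though it was kept in the fit and in counts over the family. Genes outside the family that are named were chosen from the lists after their values were seen. A member with fewer than 10 reads in a library of every group counts as having few reads. Promoter sequences are from RefSeq (GRCm38.p6) and annotation from GENCODE M21, for which 60 of 60 symbols matched. Summaries used Python 3.11.15 with pandas 2.3.3 and numpy 2.4.6, and drawings matplotlib 3.10.9. Fits with a block were made in limma, with the block as a term of the model. Alternatives were other scalings, pseudocounts, filters, priors, voom on the recovered reads, a replicate block, the compared groups alone, and each library left out.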

Additional observations from a re-analysis of the deposited data

Results flagged for a closer look

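The genotypes stood in opposite orders at the 2 stages in *Serpinf2*, the gene of α2-antiplasmin. Both GFP/GFP libraries lay above both +/+ libraries at E18.5 (17 and 24 reads against 12 and 9) and below both at P1.5 (0 and 2 reads against 29 and 41). Neither difference passed the adjusted threshold in limma's test (adjusted p = 0.9998 at E18.5 and 0.0820 at P1.5). Over all genes tested, the genotypes did not overlap in 36% at E18.5 and 39.4% at P1.5. The difference between the effects was −5.973 on the log2 scale (SE 0.79), and limma's interaction test gave an adjusted p of 0.141. Over the alternatives it ranged from −6.18 to −0.33, with −0.33 at a pseudocount of 1 RPKM, and from −6.40 to −5.55 when 1 library was left out. *Serpinf2* was at most 2.11 RPM in any library. It reached the filter only through P1.5 +/+, so its direction at P1.5 and in the interaction was partly set in advance. Of the hepatocyte genes, *Apoa1* was also higher in both P1.5 +/+ libraries (139 and 213 reads) than in P1.5 GFP/GFP (14 and 10). *Hpx* was too (112 and 150 against 49 and 45) and was higher in GFP/GFP at E18.5 (61 and 77 against 33 and 19). *Alb* had 8 and 1030 reads against 13 and 29 at P1.5, and *Itih4* lay the other way, with 204 and 220 against 681 and 2515. Of the 20 hepatocyte genes, in RPM at P1.5, both GFP/GFP libraries were below both +/+ libraries in 5 and above both in 3. The genotypes overlapped in 12.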

How the results depend on the processing

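All 28 log2 fold changes given for members kept their sign under each of the alternatives run, 540 values in all. Apart from the interactions, this was mostly fixed in advance, since all were between groups without overlap. For such groups, leaving out a library, a pseudocount, or another filter or prior cannot turn the sign. The count of members past the adjusted threshold was 0 for genotype at P1.5 (0.0128% of all genes). It rose to 1, *Serpinf2*, with no filter (0.0809% of all genes) and with a prior without a trend (0.032%). For stage in +/+ it was 0, and 0 to 3 with a library left out, the 3 without replicate 2 of P1.5 +/+. For stage in GFP/GFP it was 4 (4.55% of all genes). It was 1, *Serpina3g*, with a pseudocount of 1 RPKM (1.52% of all genes) and with voom (0.825%). With 0.1 RPKM it was 4 (3.89%), where *Serpina3n* passed and *Serpinf2* did not. With the compared groups alone it was 7, where 19.4% of all genes passed. The cause of these changes was not tested, beyond the loss of samples where a library was left out; the lone library left in its group is then assumed to vary like the other groups. Over all genes and all alternatives the count past the threshold was 0 to 24 for genotype at P1.5 (2 as reported), 0 to 22 at E18.5 (3), 0 to 2166 for stage in +/+ (9; 2166 without replicate 2 of P1.5 +/+), 0 to 4874 for stage in GFP/GFP (711; 4874 without replicate 1 of P1.5 +/+) and 0 to 2 for the interaction (0). A pseudocount of 1 RPKM brought the log2 fold change at P1.5 to −0.27 for *Serpinf2*, 1.03 for *Serpina3i*, 1.55 for *Serpina3f*, 1.88 for *Serpina3n* and 0.89 for *Serpina3c*, and left *Serpina3g* at 3.13 and *Serpinb6b* at −1.19. Members with few reads numbered 36, and 30 or 39 with a minimum of 5 or 20 reads. Below 10 reads counting error sets the precision, and 22 members cannot be placed at this depth.

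The replicate number was checked for pairing: deviations of libraries with the same number correlated by 0.23 between genotypes at E18.5, 0.21 at P1.5 and −0.29 to 0.08 across stages, so the numbers were not taken as pairs, though they follow the sex of the animals. With the replicate block over all libraries the counts were 4 for stage in GFP/GFP (0.8% of all genes) and 0 in the other contrasts (0%). With the replicate block within stage they were 7 for stage in GFP/GFP (26.6% of all genes) and 0 in the others (0% to 0.672%). Over all genes the count for stage in GFP/GFP was then 4160 in place of 711.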
